A study of Homo sapiens with 12 samples.

Results

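The genes described here are 9 components of retinoic acid signalling: the retinoic acid receptors RARA, RARB and RARG, the retinoid X receptors RXRA and RXRG, the cellular retinoic acid binding proteins CRABP1 and CRABP2, and the enzymes CYP26A1 and DHRS3. They were chosen by gene symbol, and all 9 are rows of a deposited expression table of 27514 genes. RNA sequencing gave expression values for 12 samples of IMR32 cells, a neuroblastoma line of human origin in which MYCN is amplified. The cells had been electroporated with small interfering RNAs (siRNAs) and kept in ordinary serum-containing medium for 72 h, and the labels name no added retinoid. In 4 groups of 3, samples were given a control siRNA (siCTR in the labels, siCtrl here), an siRNA against MYCN (siMYCN_2), an siRNA against HAND2 (siHAND2_3), or both of the last (siM2+siH2_3, the combined knockdown). Each target was hit with 1 siRNA in 1 cell line, so an effect of the target and an effect of that siRNA sequence cannot be told apart. Nothing in the labels says that samples of a group came from separate cultures, so p-values measure only the spread between these samples, which may be technical. The design asks which genes depend on each of these transcription factors and how the changes combine.

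Retinoic acid is made from retinol inside the cell and acts in the nucleus on RAR and RXR pairs, which sit on paired DNA half-sites and switch from repression to activation when the ligand binds. CRABP proteins carry retinoic acid in the cytoplasm, CYP26 enzymes break it down, and DHRS3 lowers its supply by turning retinaldehyde back into retinol. In neuroblastoma, retinoic acid drives differentiation and is used in treatment, while MYCN and HAND2 are transcription factors of the undifferentiated sympathetic cell. Both of these factors bind DNA at E-boxes, short sites that start with CA and end with TG.

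CYP26A1 and RARB are textbook direct targets of the retinoic acid receptors, so the receptor-type sites in their promoters are shown first. RefSeq promoter sequences, from 250 bases before to 50 bases after a start site (GRCh38.p14 table), were searched on both strands for a pair of half-sites in the same direction 5 bases apart. A half-site was AGGTCA, or in its place the variant AGTTCA, the variant GGGTCA or the variant GGTTCA. Among 35116 promoters of that length 31 held such a repeat, or 0.0883%. Of the 18 promoters of the 9 genes 2 held it, 1 of CYP26A1 and 1 of RARB. Capitals mark the half-sites. The CYP26A1 stretch lies at chr10:94833554-94833582 (GRCh37, plus strand), 96 to 68 bases before the start at 94833650, within the annotated UTR of the transcript CYP26A1-202, and its repeat reads on the opposite strand. The RARB stretch lies at chr3:25469695-25469723 (GRCh37, plus strand), 59 to 31 bases before the start at 25469754, within the annotated UTR of the longer transcripts RARB-209, RARB-211 and RARB-220.
CYP26A1: taaagaTGAACTttgggTGAACTaattgt
RARB: gggtagGGTTCAccgaaAGTTCActcgca
With half-sites 2 bases apart the repeat was found in 14 promoters (0.0399%), and with half-sites 1 base apart in 46 (0.131%), none of them a promoter of these genes.

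E-boxes are shown because the silenced factors bind such letters. CACGTG, the form preferred by MYC proteins, was found in 7.26% of all promoters and in 2 of the 18, 1 of CYP26A1 and 1 of RARA. The other start site of CYP26A1, at 94833232, has 2 copies within 82 bases before it, at chr10:94833150-94833223 (GRCh37, plus strand), marked in capitals. CATCTG, a form described for HAND proteins, was searched together with its reverse complement CAGATG, and was found in 14.7% of all promoters and in 4 of the 18, 1 each of CRABP2, DHRS3, RARA and RXRA. The stretch of CRABP2, the member that fell most in this study, lies at chr1:156675635-156675664 (GRCh37, minus strand), 88 to 59 bases before its start.
CYP26A1 E-boxes: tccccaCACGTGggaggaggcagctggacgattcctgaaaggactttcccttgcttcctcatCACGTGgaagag
CRABP2 E-box: acgagccctgagCATCTGcgcccgcagcta
The general form CANNTG, which contains both of these, was found in 68.7% of all promoters and in 13 of the 18. These matches are descriptions of letters, and binding was not measured.

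**Figure D1:**
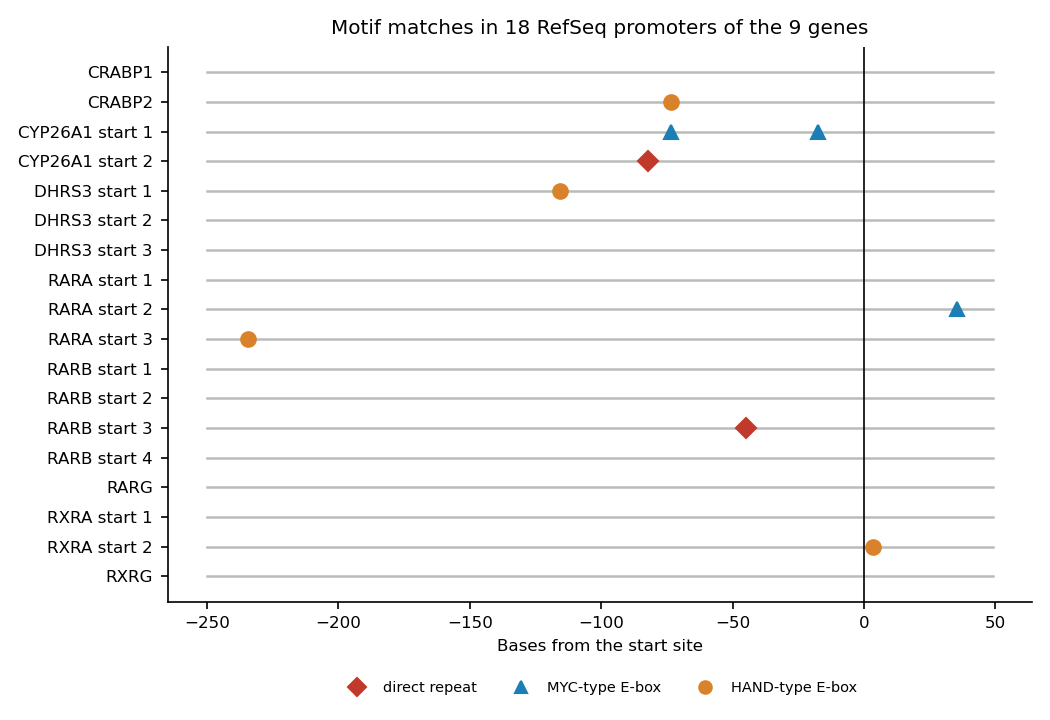
Positions of motif matches in the 18 RefSeq promoters of the 9 genes, in bases from the start site (x axis), 1 line per promoter. Red diamonds are direct repeats of half-sites 5 bases apart, blue triangles CACGTG and orange circles CATCTG or CAGATG. The direct repeat is seen in 1 promoter of CYP26A1 and 1 of RARB, and the promoters of CRABP1, RARG and RXRG hold none of the 3 motifs.

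Values are CPM (counts-per-million, the reads of a gene scaled to the depth of its sample), as deposited, and fold changes and tests are on log2(CPM + 1), which understates the change of genes at low CPM. A gene is termed called when its limma p, adjusted by Benjamini-Hochberg over 12680 genes with a mean of at least 1 CPM, is under 0.05. Estimated depth was 31.6 to 64.2 M reads a sample. The share of reads in listed genes was 64.3 to 65.8% in siCtrl and 44.3 to 58.4% in the combined knockdown, lowest in its replicate 3. The median log2 change of all tested genes against siCtrl was 0.00564 in siMYCN, -0.135 in siHAND2, with -0.279 in the combined knockdown. Dividing every sample by the median of its gene-wise ratios to the geometric mean over samples is called rescaling here. After it, these medians were 0.014, 0.0119 and 0.0445, so rescaled changes of the 9 genes against siCtrl stand beside those as deposited. They are given wherever rescaling changed a call or a direction or moved a called value by over 1.5 times, and for most other changes. For genes outside the 9 some such rescaled changes are left out. MYCN CPM were 964, 1049 and 1015 in siCtrl, 671, 666 and 708 in siMYCN, 899, 844 and 802 in siHAND2, and 555, 458 and 433 in the combined knockdown. HAND2 CPM were 224, 241 and 254 in siCtrl, 324, 319 and 334 in siMYCN, 54.3, 64.9 and 67.7 in siHAND2, and 86.3, 67.1 and 67.2 in the combined knockdown. Each target was called lower wherever its siRNA was used, with MYCN at 67.5% and 47.7% and HAND2 at 26.0% and 30.7% of siCtrl in the single and combined knockdowns. MYCN was at -0.25 in siHAND2 (limma adjusted p = 0.086), with all 3 samples below those of siCtrl, and was called in a fit of these groups alone (limma adjusted p = 0.013) and without combined replicate 1 (0.014) or 3 (0.020). HAND2 was higher in siMYCN than in siCtrl (log2 fold change 0.44, limma adjusted p = 0.0062). MYCN overlaps MYCNOS and HAND2 overlaps HAND2-AS1, each on the other strand. The 14 noradrenergic markers of the cell line summed to 1954 to 2079 CPM in siCtrl, 2099 to 2130 in siMYCN, 1793 to 1956 in siHAND2 and 1269 to 1827 in the combined knockdown, and this sum holds MYCN and HAND2 themselves. Without these, 12 markers summed to 767 to 790 CPM in siCtrl, 1086 to 1135 in siMYCN, 923 to 1002 in siHAND2, with 769 to 1186 in the combined knockdown. Of these 12 markers 11 were tested, with 9 called higher and 0 lower in siMYCN, 5 higher and 3 lower in siHAND2, and 5 higher and 3 lower in the combined knockdown (8 and 3 after rescaling). Over all tested genes 17.4% were called higher and 16.3% lower in siMYCN, and 12.3% and 30.4% in siHAND2. In the combined knockdown these shares were 17.4% and 50.1% (37.7% and 33% after rescaling). The part of the 12 markers in the changes of the 9 genes was not tested.

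Of the 9 genes 8 passed the expression filter. CYP26A1 passed, with a mean of 1.04 CPM, only through its levels in the siHAND2 and combined groups, and DHRS3, at a mean of 0.344 CPM, did not pass. In siMYCN 5 of the 8 were called against siCtrl, all higher (RARA, RARB, RXRG, CRABP1 and CRABP2), beside 33.7% of all tested genes called and 17.4% called higher. In siHAND2 6 of the 8 were called, with RXRG and CYP26A1 higher and RARA, RXRA, CRABP1 and CRABP2 lower, beside 42.7% of all genes called, 12.3% higher and 30.4% lower. In the combined knockdown 7 of the 8 were called, with RARB, RXRG and CYP26A1 higher and RARA, RARG, RXRA and CRABP2 lower, beside 67.4% called, 17.4% higher and 50.1% lower. Among all 8 that passed, the median log2 change was 0.48 in siMYCN, -0.37 in siHAND2, with -0.29 in the combined knockdown, and rescaling made it 0.49, -0.22 and 0.054. The last of these, a median that includes CYP26A1, changed sign with the scaling. After rescaling the same numbers of members, 5, 6 and 7, were called beside 47.9%, 50.8% and 70.7% of all genes, and in the combined knockdown 4 were higher and 3 lower (37.7% and 33% of all genes). Because CYP26A1 entered through the groups where it is high, the counts without it were 5, 5 and 6 of 7. The medians without it, as deposited, were 0.57, -0.43 and -0.49. After rescaling the middle of these 7 genes in the combined knockdown was RARA, at -0.14. The change of sign was thus seen only with CYP26A1 included. These 3 comparisons share the siCtrl samples. In bulk RNA, fewer cells that express a gene and less of its RNA per cell cannot be told apart.

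**Figure D2:**
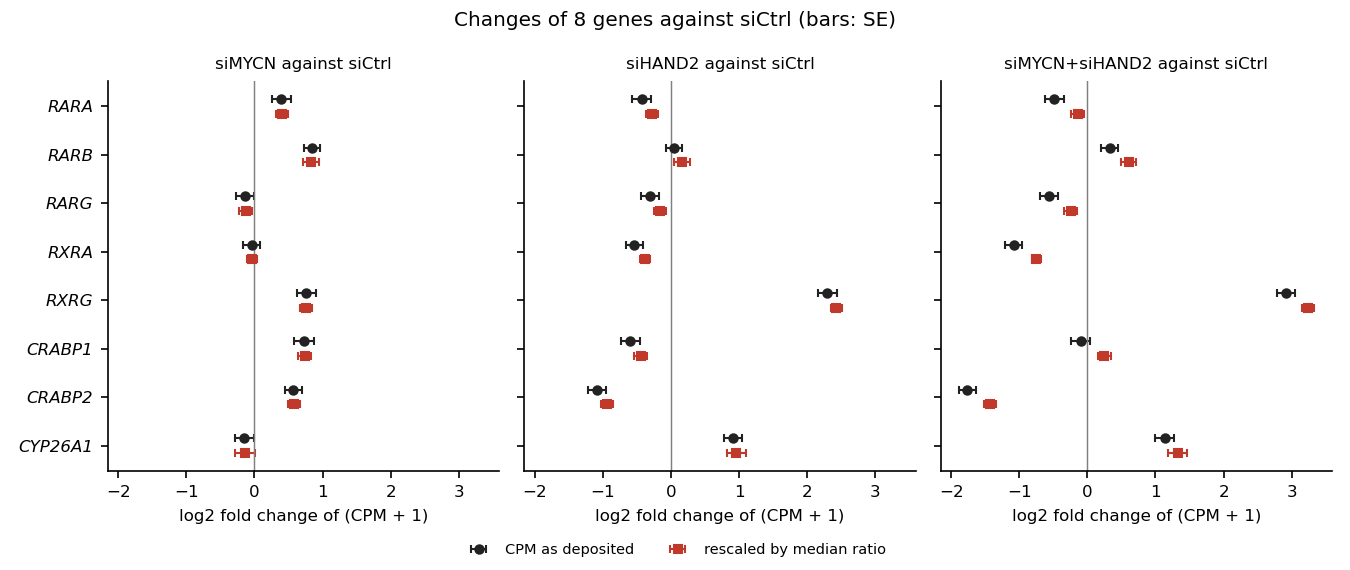
Log2 fold change of (CPM + 1) against siCtrl (x axis) for the 8 genes that passed the filter, in siMYCN, siHAND2 and the combined knockdown, with bars of 1 SE. Black circles are CPM as deposited and red squares CPM after rescaling. RXRG lies far to the right in siHAND2 and the combined knockdown, CRABP2 lies right in siMYCN and left in the other 2 panels, and CRABP1 crosses 0 between the scales in the combined knockdown.

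RARA, the receptor most widely expressed across tissues (chromosome 17: 38465423 to 38513896, plus strand, hg19), measured 28.0, 29.8 and 25.3 CPM in siCtrl and 39.4, 36.3 and 34.6 CPM in siMYCN. It measured 23.1, 21.1 and 17.1 CPM in siHAND2 and 25.5, 18.4 and 15.6 CPM in the combined knockdown. Every siMYCN sample lay above and every siHAND2 sample below the siCtrl samples, while the combined samples overlapped both siCtrl and siHAND2. RARA was higher in siMYCN by 0.40 ± 0.14 on the log2 scale (SE, limma adjusted p = 0.031) and lower in siHAND2 by a log2 change of -0.43 ± 0.14 (limma adjusted p = 0.016), or -0.28 after rescaling (limma adjusted p = 0.024). The siMYCN call was lost, at limma adjusted p of 0.066, 0.13, 0.12 and 0.069, without siCtrl replicate 1, siCtrl replicate 3, siMYCN replicate 1 or siMYCN replicate 2. The siHAND2 call was lost without siCtrl replicate 2 (limma adjusted p = 0.074) or siHAND2 replicate 3 (limma adjusted p = 0.11). In the combined knockdown its log2 change was -0.49 (limma adjusted p = 0.0036), and after rescaling -0.14 (limma adjusted p = 0.19), no longer called. RARA overlaps RARA-AS1 on the other strand, at 0.511 ± 0.108 CPM in siCtrl, 1.69 ± 0.350 in siMYCN, 0.824 ± 0.382 in siHAND2, with 2.22 ± 0.556 in the combined knockdown (SD, n = 3). Whether reads were counted by strand is not given in the sources used here.

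RARB, whose transcription is itself induced by retinoic acid in many cells (chromosome 3: 24870814 to 25639423, plus strand), measured 2.31, 2.83 and 3.17 CPM in siCtrl. In siMYCN it measured 5.65, 5.06 and 6.54 CPM, in siHAND2 3.04, 2.85 and 2.79 CPM, and in the combined knockdown 3.68, 3.83 and 3.61 CPM. The siMYCN samples stood above all others, the combined samples lay between them and siCtrl, and siHAND2 overlapped siCtrl. The rise in siMYCN was 0.84 ± 0.12 on the log2 scale (SE, limma adjusted p = 5.3e-06), with a mean CPM at 207% of siCtrl. The siHAND2 difference was 0.05 (limma adjusted p = 0.75), or 0.17 after rescaling (limma adjusted p = 0.24). RARB rose by 0.33 in the combined knockdown (limma adjusted p = 0.018), by 0.61 after rescaling. That call was lost without siCtrl replicate 1 (0.24, limma adjusted p = 0.13) or combined replicate 2 (0.31, limma adjusted p = 0.054). The combined knockdown lay below siMYCN by a log2 change of -0.51 (limma adjusted p = 0.00068), or -0.23 after rescaling (limma adjusted p = 0.11), so that call depended on the scale. RARB overlaps TOP2B, which is on the other strand and stood at 264 ± 10.3 CPM in siCtrl (SD, n = 3), and without stated strand use their reads may be mixed.

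RARG, a receptor known for its role in skin and embryonic tissues (chromosome 12: 53604350 to 53626041, minus strand), measured 10.02, 8.67 and 8.70 CPM in siCtrl and 7.44, 8.69 and 8.45 CPM in siMYCN. It measured 7.98, 7.65 and 6.07 CPM in siHAND2 and 7.23, 5.83 and 4.75 CPM in the combined knockdown. Each group overlapped its neighbour in this order. Of the comparisons with siCtrl, that with the combined knockdown was called, at a log2 change of -0.56 ± 0.13 (SE, limma adjusted p = 0.00047), and after rescaling it was -0.25 (limma adjusted p = 0.027). The rescaled call was lost without combined replicate 3 (-0.22, limma adjusted p = 0.076) and with no filter (limma adjusted p = 0.062). The siMYCN difference was -0.14 (limma adjusted p = 0.43) and the siHAND2 difference -0.30 (limma adjusted p = 0.059). The siHAND2 difference passed without siHAND2 replicate 1 (limma adjusted p = 0.040), combined replicate 1 (0.026) or combined replicate 3 (0.021).

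Of the retinoid X receptors, the partners with which RARs bind DNA, RXRA fell and RXRG rose where HAND2 was silenced. RXRB, which is not among the 9 genes, measured 27.3 ± 2.19 CPM in siCtrl, 27.6 ± 2.32 in siMYCN, 27.4 ± 1.40 in siHAND2, with 25.97 ± 5.78 in the combined knockdown (SD, n = 3). Its log2 change was 0.010 in siHAND2 (limma adjusted p = 0.96), with a 95% interval from -0.26 to 0.28, and -0.087 in the combined knockdown (limma adjusted p = 0.56), which rescaling turned to 0.26 (limma adjusted p = 0.0053). RXRA (chromosome 9: 137218309 to 137332433, plus strand) measured 24.7, 26.1 and 23.4 CPM in siCtrl and 25.7, 23.3 and 23.0 CPM in siMYCN. It measured 17.98, 16.5 and 15.7 CPM in siHAND2 and 13.9, 11.3 and 8.68 CPM in the combined knockdown. The siMYCN samples overlapped siCtrl, all siHAND2 samples lay below both, and all combined samples lay below siHAND2. RXRA changed by -0.04 in siMYCN (limma adjusted p = 0.83), with a 95% interval of the log2 difference from -0.30 to 0.22. It fell by 0.54 ± 0.13 in siHAND2 (SE, limma adjusted p = 0.0014) and by 1.08 ± 0.13 in the combined knockdown (limma adjusted p = 4.2e-08) on the log2 scale. The rescaled changes were -0.38 and -0.75.

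RXRG (chromosome 1: 165370159 to 165414593, minus strand), the RXR with the most restricted expression, found in brain, muscle and other tissues, had the largest change on the log2(CPM + 1) scale among the 8 genes that passed the filter. It measured 4.02, 4.20 and 4.50 CPM in siCtrl and 7.31, 8.35 and 7.98 CPM in siMYCN. It measured 24.9, 25.3 and 24.1 CPM in siHAND2 and 50.96, 38.6 and 28.9 CPM in the combined knockdown. No 2 groups overlapped, and the combined samples were the most spread. RXRG rose by 0.76 ± 0.14 in siMYCN (SE, limma adjusted p = 0.00012), by 2.30 ± 0.14 in siHAND2 (limma adjusted p = 1.1e-12) and by 2.92 ± 0.14 in the combined knockdown (limma adjusted p = 3.9e-15) on the log2 scale. Mean CPM were 186%, 584% and 932% of siCtrl. After rescaling the log2 changes were 0.76, 2.43 and 3.24. The combined knockdown was above siHAND2 by 0.62 (limma adjusted p = 0.00087), or by 0.81 after rescaling.

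**Figure D3:**
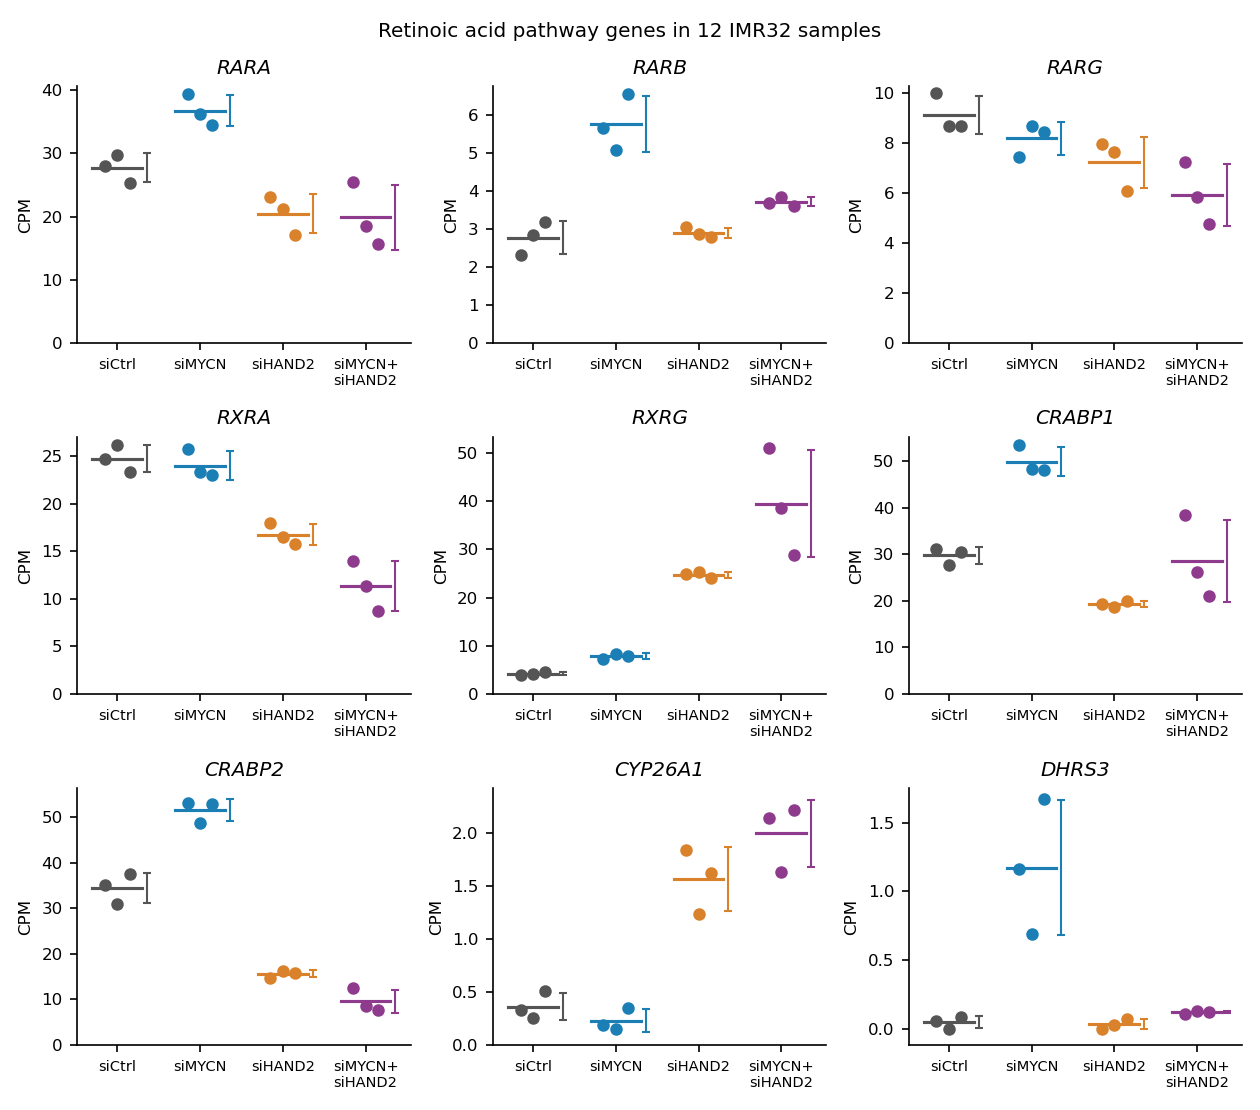
CPM of the 9 genes (y axes, linear, each with its own range) in the 3 samples of siCtrl, siMYCN, siHAND2 and the combined knockdown, with the group mean (line) and SD (bar at the right of each group). RXRG climbs from 4.02 to 4.50 CPM in siCtrl to 28.9 to 50.96 CPM in the combined knockdown, and DHRS3 is above 0.5 CPM in the siMYCN samples only.

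CRABP1 and CRABP2 rose together when MYCN was silenced and parted when both factors were. CRABP1, a cytoplasmic protein that buffers retinoic acid (chromosome 15: 78632666 to 78640573, plus strand), measured 31.0, 27.6 and 30.5 CPM in siCtrl and 53.4, 48.3 and 48.0 CPM in siMYCN. It measured 19.2, 18.7 and 20.05 CPM in siHAND2 and 38.4, 26.2 and 21.0 CPM in the combined knockdown. The siMYCN samples stood above all others, the siHAND2 samples below all others, and the combined samples spread on both sides of siCtrl. CRABP1 rose by 0.73 ± 0.14 in siMYCN (SE, limma adjusted p = 0.00029) and fell by 0.60 ± 0.14 in siHAND2 (limma adjusted p = 0.0015), or by 0.44 after rescaling. In the combined knockdown it was -0.097 as deposited (limma adjusted p = 0.56) and 0.25 after rescaling (limma adjusted p = 0.028), so both its direction and its call depended on the scale. The combined samples also decided this value as deposited, which was -0.33 without replicate 1 (limma adjusted p = 0.0074) and 0.093 without replicate 3.

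CRABP2, which delivers retinoic acid to RARs in the nucleus (chromosome 1: 156669400 to 156675609, minus strand), measured 35.0, 31.0 and 37.4 CPM in siCtrl and 53.2, 48.8 and 52.8 CPM in siMYCN. It measured 14.8, 16.3 and 15.9 CPM in siHAND2 and 12.5, 8.63 and 7.78 CPM in the combined knockdown. No 2 groups overlapped, with the combined knockdown lowest and siMYCN highest. CRABP2 rose by 0.57 ± 0.13 in siMYCN (SE, limma adjusted p = 0.0013) and fell by 1.09 ± 0.13 in siHAND2 (limma adjusted p = 2.6e-07) and by 1.76 ± 0.13 in the combined knockdown (limma adjusted p = 1.1e-11) on the log2 scale. After rescaling the changes were 0.58, -0.93 and -1.42. CRABP2 was thus higher with the MYCN siRNA alone than with the control siRNA, and lower with both siRNAs than with the HAND2 siRNA alone. The combined knockdown lay below siHAND2 by a log2 change of -0.67 (limma adjusted p = 0.00022), or -0.49 after rescaling.

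CYP26A1, the main enzyme that clears retinoic acid (chromosome 10: 94833232 to 94837642, plus strand), was low throughout. It measured 0.331, 0.251 and 0.505 CPM in siCtrl and 0.185, 0.148 and 0.353 CPM in siMYCN, from 6 to 29 estimated reads a sample. It measured 1.84, 1.24 and 1.62 CPM in siHAND2 and 2.14, 1.63 and 2.22 CPM in the combined knockdown, from 42 to 137 estimated reads. All samples that received the HAND2 siRNA lay above all that did not, siMYCN overlapped siCtrl, and the combined knockdown overlapped siHAND2. Since the filter chose CYP26A1 through its high groups, its changes are given from a fit with no filter, in which 24.8% of 21101 genes were called in siHAND2 and 45.3% in the combined knockdown. CYP26A1 rose by 0.91 ± 0.11 in siHAND2 (SE, limma adjusted p = 0.00020) and by 1.14 ± 0.11 in the combined knockdown (limma adjusted p = 9.8e-06) on the log2(CPM + 1) scale, or by 0.96 and 1.33 after rescaling. Group mean CPM were 432% and 551% of siCtrl. The siMYCN difference was -0.15 (limma adjusted p = 0.44). The difference between the combined knockdown and siHAND2 was 0.23 with no filter (limma adjusted p = 0.19). After rescaling it was called with the filter (0.37, limma adjusted p = 0.044) but not in the rescaled fit with no filter. CYP26B1, another enzyme that clears retinoic acid, stood higher in CPM and did not share the rise. It measured 3.61 ± 0.780 CPM in siCtrl, 4.32 ± 0.276 in siMYCN, 2.23 ± 0.186 in siHAND2, with 2.87 ± 0.736 in the combined knockdown (SD, n = 3). Its log2 change was -0.50 in siHAND2 (limma adjusted p = 0.0045), a call lost without siCtrl replicate 1 (-0.37, limma adjusted p = 0.051). In the combined knockdown it was -0.26 (limma adjusted p = 0.0995), called without siCtrl replicate 2 (0.046) or combined replicate 1 (0.016), and 0.011 after rescaling (limma adjusted p = 0.94).

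DHRS3, the reductase that is itself a known retinoic acid induced gene (chromosome 1: 12627939 to 12677738, minus strand), was close to the detection limit in all groups but siMYCN. It measured 1.16, 0.692 and 1.67 CPM in siMYCN, from 28 to 71 estimated reads. In siCtrl it measured 0.0552, 0.0001 and 0.0872 CPM, in siHAND2 0.0001, 0.0295 and 0.0715 CPM, and in the combined knockdown 0.109, 0.130 and 0.122 CPM, none above 7 estimated reads. The value 0.0001 is a constant that stands for no reads, and 3 reads correspond to 0.0468 to 0.0949 CPM, counting error only. Every siMYCN sample lay above every other sample, and the siMYCN mean exceeded that of siCtrl by 1.13 CPM. The exact two-sided permutation test gave p = 0.1 (0.12 adjusted over 6 pairs of groups), the smallest p that 3 against 3 samples allow. In a limma fit with no filter, DHRS3 rose by 1.03 in siMYCN (limma adjusted p = 0.00028), beside 18.5% of 21101 genes called. In that fit the combined knockdown lay below siMYCN by a log2 change of -0.93 (limma adjusted p = 0.00015).

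The paired members were also compared as ratios within each sample, which do not depend on the scaling between samples. These ratios were chosen after the values had been seen. RXRG to RXRA was 0.163, 0.161 and 0.193 in siCtrl, 0.284, 0.358 and 0.347 in siMYCN, 1.38, 1.53 and 1.53 in siHAND2, and 3.65, 3.40 and 3.33 in the combined knockdown. The groups did not overlap, and the geometric mean of the combined knockdown was 20.2 times that of siCtrl, with the combined samples closer together here than in their CPM. CRABP2 to CRABP1 was 1.13, 1.12 and 1.23 in siCtrl, 0.997, 1.01 and 1.10 in siMYCN, 0.769, 0.874 and 0.792 in siHAND2, and 0.326, 0.329 and 0.370 in the combined knockdown. These groups did not overlap either. RARB to RARA was 0.101 ± 0.0220 in siCtrl, 0.157 ± 0.0277 in siMYCN, 0.143 ± 0.0175 in siHAND2, with 0.194 ± 0.0451 in the combined knockdown (SD, n = 3), higher in all 3 knockdowns than in siCtrl without overlap. RARG to RARA was 0.331 ± 0.0351 in siCtrl and 0.224 ± 0.0309 in siMYCN (SD, n = 3), without overlap. Each pair of groups that did not overlap gave the smallest exact two-sided permutation p the design allows, 0.1, or 0.126 adjusted over the 24 comparisons of ratios.

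**Figure D4:**
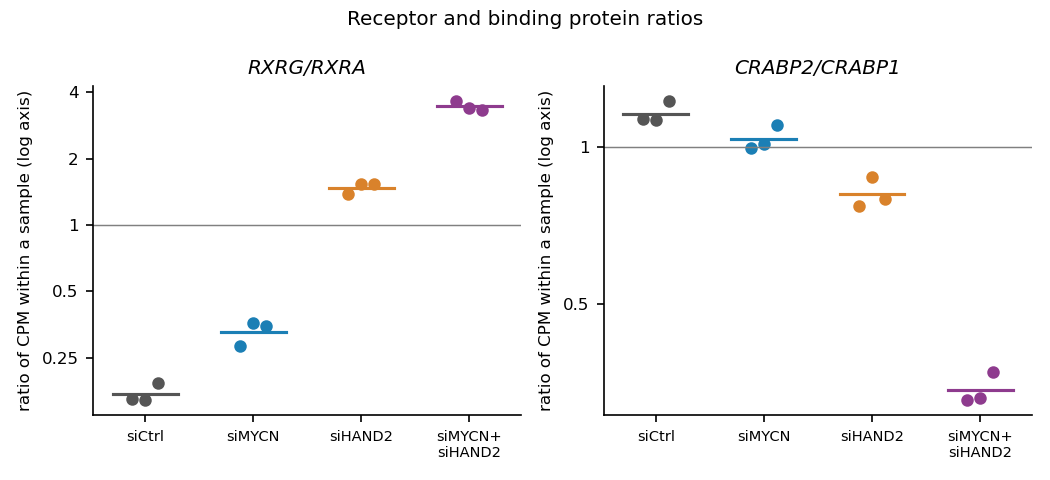
Ratio of CPM within a sample (y axes, log scale) for RXRG to RXRA and CRABP2 to CRABP1, 1 point per sample, with lines at the group mean of the log ratio. RXRG to RXRA passes 1 in siHAND2 and reaches 3.33 to 3.65 in the combined knockdown, and CRABP2 to CRABP1 falls to 0.326 to 0.370.

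The remaining comparisons set the knockdowns against each other. Of the 8 genes 7 were called between siMYCN and siHAND2 (35% of all genes, with 26.1% higher in siMYCN and 8.98% lower), with RARA, RARB, RXRA, CRABP1 and CRABP2 higher in siMYCN and RXRG and CYP26A1 lower. The largest of these was CRABP2, at 1.66 (limma adjusted p = 1.5e-10). Between the combined knockdown and siMYCN all 8 were called (58.9% of all genes, 8.92% higher and 50% lower), 2 higher and 6 lower, and 6 after rescaling (56.7% of all genes). Between the combined knockdown and siHAND2 4 were called (40.3% of all genes, 8.75% higher and 31.5% lower), CRABP1 and RXRG higher and CRABP2 and RXRA lower. After rescaling CYP26A1 and RARB were called higher too (49.7% of all genes), CYP26A1 only with the filter. Without CYP26A1, which entered through its high groups, 6, 7 and 4 of 7 genes were called as deposited, in the same order.

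Whether both knockdowns added up on the log scale was tested by the interaction, the combined change minus the sum of the single changes. This term does not compare knockdowns of equal depth. Mean MYCN CPM stood at 67.5% of siCtrl with the MYCN siRNA alone, 84.1% with the HAND2 siRNA alone and 47.7% with both. HAND2 stood at 26.0% with its siRNA alone and 30.7% with both. The part of the deeper MYCN loss in the interactions below was not tested. Among the 8 CRABP2 was called, at -1.24 ± 0.18 (SE, limma adjusted p = 0.00021), beside 4.01% of all genes called, 0.355% higher and 3.65% lower. After rescaling it was -1.07 (limma adjusted p = 0.00024), with 6.14% of all genes called. The sum of its single changes was a fall smaller than the fall measured with both siRNAs. RARB was at -0.57 (limma adjusted p = 0.055), RXRA at -0.50 (limma adjusted p = 0.11) and RARA at -0.45 (limma adjusted p = 0.19), as deposited. The median interaction of all tested genes was -0.181 as deposited and -0.0091 after rescaling, and rescaling also left CRABP2 the only call among the 8. In a fit blocked on replicate number, RARB (limma adjusted p = 0.024) and RXRA (0.031) were called too, beside 10.1% of all genes. Same-numbered samples deviated together in some pairs of these groups and less clearly in others. The column numbers of the deposited table run by replicate across all 4 groups. RXRG was at -0.14 (limma adjusted p = 0.66), with a 95% interval from -0.54 to 0.26, and after rescaling at 0.055 (limma adjusted p = 0.82). Without combined replicate 1, 5 genes were called instead of 1, beside 35% of all genes instead of 4.01%. These were RARA at -0.64, RARB at -0.56, RXRA at -0.66, CRABP1 at -0.46 and CRABP2 at -1.43. The median of all genes moved to -0.276 in that fit. Combined replicate 1 had the greatest depth, and 58.4% of its reads in listed genes, against 51.4% and 44.3% in combined replicates 2 and 3. What the added calls rest on was not tested.

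To compare levels between genes, CPM were divided by the length of each gene's Ensembl canonical transcript. In siCtrl the binding proteins stood highest, CRABP1 at 40.3 ± 2.54 and CRABP2 at 35.4 ± 3.34 CPM per kilobase (SD, n = 3), and their samples overlapped. RARA followed at 8.47 ± 0.692, RXRA at 4.47 ± 0.251, RARG at 3.13 ± 0.265, RXRG at 2.16 ± 0.122 and RARB at 0.885 ± 0.138 CPM per kilobase. CYP26A1 stood at 0.171 ± 0.0615 and DHRS3 at 0.0216 ± 0.02002 CPM per kilobase. No other neighbours in this order overlapped. The transcript in use was not measured, so these levels depend on the chosen transcript.

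Other genes of the pathway were read from 3 lists. The list on retinoid supply and breakdown held 29 genes, of which 10 passed the filter and 17 had a mean under 0.1 CPM, among them ALDH1A1 and ALDH1A2, which make retinoic acid. In siMYCN 2 were called higher and 2 lower, in siHAND2 1 higher and 6 lower, and in the combined knockdown 1 higher and 7 lower (2 and 6 after rescaling). The shares over all tested genes, higher and lower, were 17.4% and 16.3%, 12.3% and 30.4%, and 17.4% and 50.1% in the same order. The median log2 changes were -0.097, -0.40 and -0.57, and after rescaling -0.088, -0.25 and -0.26, beside the medians of all genes given above. STRA6, the membrane receptor that takes up retinol, measured 11.4 ± 1.33 CPM in siCtrl, 35.6 ± 2.95 in siMYCN, 3.55 ± 0.494 in siHAND2, with 7.46 ± 1.55 in the combined knockdown (SD, n = 3). It rose by 1.56 in siMYCN (limma adjusted p = 2.2e-09) and fell by 1.45 in siHAND2 (limma adjusted p = 2.3e-09). ALDH1A3, the retinaldehyde dehydrogenase detected above the filter, measured 3.88 ± 0.638, 9.15 ± 0.277, 5.46 ± 0.707 and 7.43 ± 2.32 CPM in the same order. It rose by 1.07 in siMYCN (limma adjusted p = 6.1e-06), 0.41 in siHAND2 (limma adjusted p = 0.032) and 0.76 in the combined knockdown (limma adjusted p = 1.0e-04). The siHAND2 call of ALDH1A3 was lost without siCtrl replicate 1 (limma adjusted p = 0.12), siCtrl replicate 2 (0.098) or siHAND2 replicate 2 (0.14). FABP5, a fatty acid binding protein that can also carry retinoic acid, measured 139 ± 5.99, 99.6 ± 2.68, 81.9 ± 2.15 and 56.8 ± 2.03 CPM, and fell by 1.28 in the combined knockdown (limma adjusted p = 5.9e-11). RDH10, which oxidizes retinol, fell by 0.69 in siHAND2 (limma adjusted p = 0.00021) and by 1.21 in the combined knockdown (limma adjusted p = 2.2e-08).

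The list of receptor partners and coregulators held 17 genes, of which 16 passed the filter. In siMYCN 3 were called higher and 1 lower, in siHAND2 3 higher and 2 lower, and in the combined knockdown 3 higher and 5 lower. These 4, 5 and 8 calls among 16 genes stand beside 33.7%, 42.7% and 67.4% of all genes called. The shares higher and lower over all genes were 17.4% and 16.3% in siMYCN and 12.3% and 30.4% in siHAND2. After rescaling the counts were 4 and 2, 8 and 2, and 9 and 4, beside 47.9%, 50.8% and 70.7% of all genes called. In the combined knockdown the balance of higher and lower calls turned with the scale, as it did over all tested genes. Of all genes 17.4% were higher and 50.1% lower there as deposited, and 37.7% higher and 33% lower after rescaling. The median log2 changes were 0.036, 0.13 and 0.0043, and after rescaling 0.046, 0.29 and 0.29. ZNF423, a zinc finger cofactor of the RAR and RXR pair, rose in all 3, at 19.1 ± 2.07 CPM in siCtrl, 32.0 ± 2.71 in siMYCN, 30.9 ± 5.22 in siHAND2, with 41.4 ± 5.60 in the combined knockdown (SD, n = 3), with log2 changes of 0.72, 0.66 and 1.07 (limma adjusted p of 0.00013, 0.00022 and 7.1e-08). The coactivator NCOA2 rose by 0.39, 0.43 and 0.64 (limma adjusted p of 0.014, 0.0061 and 5.4e-05), the last at 0.99 after rescaling. Its siMYCN call was lost without siCtrl replicate 1 (limma adjusted p = 0.060), siCtrl replicate 3 (0.084) or siMYCN replicate 1 (0.061). HDAC3, the deacetylase of the corepressor complex, was at -0.23 in siMYCN (limma adjusted p = 0.15) and fell by 0.58 in siHAND2 (limma adjusted p = 0.00049) and by 0.91 in the combined knockdown (limma adjusted p = 3.8e-07), or by 0.57 after rescaling. NR2F2, an orphan receptor that can compete for RAR sites, fell by 0.81 in siMYCN (limma adjusted p = 6.3e-05) and by 0.80 in the combined knockdown (limma adjusted p = 1.4e-05), or by 0.49 after rescaling, and was at -0.17 in siHAND2 (limma adjusted p = 0.33).

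The list of genes that rise with retinoic acid in neural or embryonal cells held 21 genes, of which 7 passed the filter. A mean under 0.1 CPM was seen for 11, among them HOXB1 and HOXB2, homeobox genes of the early retinoic acid response. In siMYCN 4 of the 7 were called higher (RET, NEDD9, NAV2 and MEIS1) and 1 lower (MEIS2), in siHAND2 1 higher and 4 lower, and in the combined knockdown 1 higher and 2 lower. Over all tested genes 17.4% were called higher and 16.3% lower in siMYCN, 12.3% and 30.4% in siHAND2, and 17.4% and 50.1% in the combined knockdown. After rescaling the list counts were 5 and 1, 1 and 4, and 3 and 2, beside 47.9%, 50.8% and 70.7% of all genes called in either direction. In siMYCN the call of NAV2 was lost without siCtrl replicate 3 (limma adjusted p = 0.19) or siMYCN replicate 1 (0.12), and that of MEIS1 without siCtrl replicate 1 (0.061) or siMYCN replicate 3 (0.054). The call of MEIS2 in siMYCN was lost without siCtrl replicate 2 (limma adjusted p = 0.077), siCtrl replicate 3 (0.12) or any one of the siMYCN samples (0.064 to 0.090). The median log2 changes were 0.41, -0.33 and -0.079, and after rescaling 0.42, -0.17 and 0.15, with the last changing sign. RET, a receptor of the GDNF family ligands, measured 1.60 ± 0.169 CPM in siCtrl, 5.93 ± 0.550 in siMYCN, 0.927 ± 0.247 in siHAND2, with 1.46 ± 0.139 in the combined knockdown (SD, n = 3). It rose by 1.41 in siMYCN (limma adjusted p = 5.1e-09) and had an interaction of -1.05 (limma adjusted p = 0.00084). NEDD9, a focal adhesion scaffold, rose by 0.90 in siMYCN (limma adjusted p = 1.6e-05) and fell by 1.72 in siHAND2 (limma adjusted p = 2.9e-10) and by 1.35 in the combined knockdown (limma adjusted p = 3.6e-09). NAV2, a neuron navigator, rose by 1.05 in siHAND2 (limma adjusted p = 1.4e-05) and by 1.07 in the combined knockdown (limma adjusted p = 3.4e-06). MEIS2, a homeobox cofactor, fell by 0.98 in siHAND2 (limma adjusted p = 1.4e-07) and by 1.69 in the combined knockdown (limma adjusted p = 1.7e-12). Genes of this list therefore moved both ways in siHAND2 and in the combined knockdown. In siMYCN the single call lower was that of MEIS2, lost in several of the fits above, so movement both ways is less sure there. Beside these counts, 5 of the 12 mesenchymal or Schwann cell markers passed the filter. In siMYCN 0 were called as deposited, and 1 higher and 1 lower after rescaling. All 5 were called lower in siHAND2 and in the combined knockdown, beside 30.4% and 50.1% of all genes. After rescaling 4 were called lower in the combined knockdown, beside 33% of all genes. The 12 markers summed to 103 to 109 CPM in siCtrl, 109 to 116 in siMYCN, 55.8 to 60.6 in siHAND2 and 46.0 to 60.8 in the combined knockdown. PRRX1 was at the constant in every sample. The part of these markers in the changes of the pathway genes was not tested. The 8 epithelial, endothelial and blood cell markers summed to between 0.937 and 2.73 CPM in every sample.

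**Figure D5:**
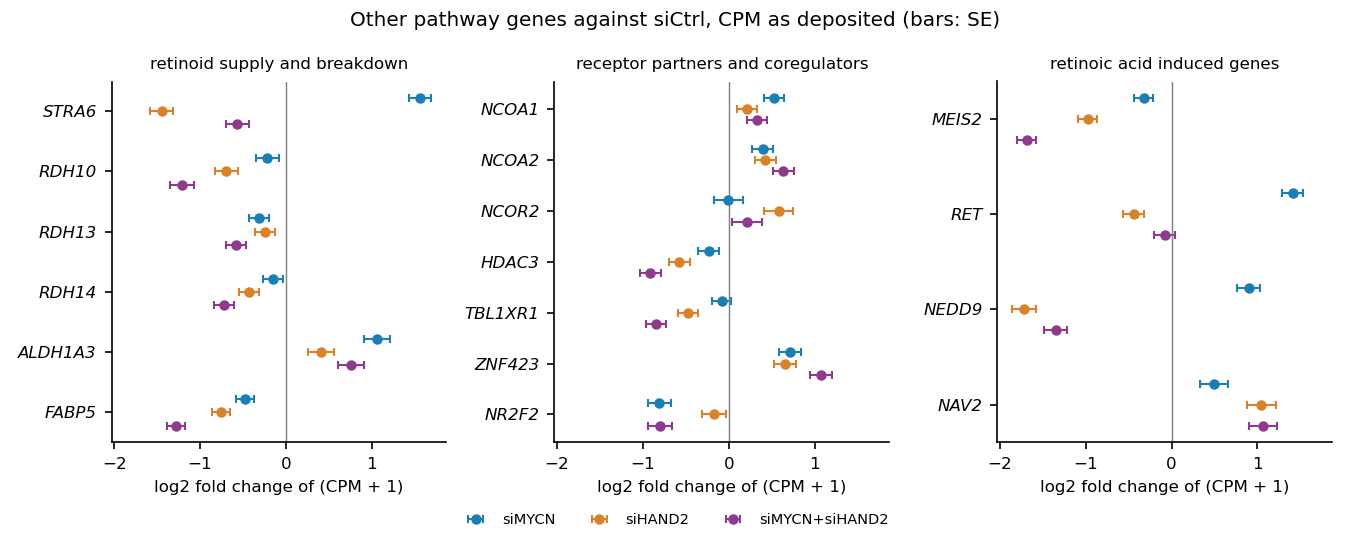
Log2 fold change of (CPM + 1) against siCtrl (x axes, CPM as deposited, bars of 1 SE) for the other pathway genes chosen by the naming rule, in siMYCN (blue), siHAND2 (orange) and the combined knockdown (purple). STRA6, RET and NEDD9 lie right of 0 in siMYCN and left of 0 in siHAND2, and ZNF423 and NCOA2 lie right of 0 in all 3.

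Across the 12 samples, which fall into 4 groups and share libraries and depth, the genes with the pattern most like each member were listed by Pearson's r of log2(CPM + 1), as a description. For RXRG they were THSD7B (r = 0.996) and FRMD3 (r = 0.993), for CRABP1 GAL (r = 0.993) and ILK (r = 0.990), and for CYP26A1 GAS2 (r = 0.974) and PPP1R17 (r = 0.970). For RXRA they were KPNA2 and GSTM1 (both r = 0.994), and for RARA TAPBP (r = 0.988) and SLC18A3 (r = 0.985). For RARB they were KCNH7 (r = 0.977) and KCNB2 (r = 0.967). RARG had TYRO3 (r = 0.956) and ATPAF1 (r = 0.955), which after rescaling stood at 0.782 and 0.814. CRABP2 had MXD3 (r = 0.989) and DLG1 (r = 0.988), with DLG1 at 0.869 after rescaling.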

How the data were processed

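Total RNA of 12 IMR32 samples was sequenced. The authors deposited 1 table of CPM with a column per sample, mapped to groups and replicate numbers by the titles, and every sample column was used. Per the submitters' processing notes, the tools were STAR 2.5.1 and Partek and the build hg19/GRCh37. How reads were counted, whether by strand, on which annotation and with which filter is not given in the sources used here. A constant of 0.0001 stands for no reads in the deposited CPM, and 6389 genes stood at it in all samples. The smallest step between low CPM values gave the depth, but only 88.6 to 90.2% of values under 20 reads were whole within 0.05 reads, so no count test was run.

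Genes with a mean of at least 1 CPM were fitted as log2(CPM + 1) on the 4 groups with limma 3.58.1 (eBayes with a trend, R 4.3.3), two-sided, adjusted by Benjamini-Hochberg over 12680 genes. The script was tested on simulated data. The members and gene lists were chosen with earlier results of these data known. The naming rule takes all members, MYCN and HAND2, the up to 3 largest called rises and falls per list and knockdown, and the 2 genes most correlated with a called member at a mean of at least 5 CPM, and some genes it covers are not described. The text also names RXRB, CYP26B1, MEIS1, ALDH1A1, ALDH1A2, HOXB1, HOXB2 and the markers PRRX1 and CDH5, chosen after their values were seen. Same-numbered samples of siCtrl and siMYCN, and of siMYCN and siHAND2, deviated together (correlations of 0.137 to 0.44), so the titles' numbers pair these groups. Other group pairs ranged from -0.192 to 0.423. The column numbers of the deposited table also run by replicate number across all 4 groups. The main fit treated no groups as paired, so its p-values leave this pairing out, and the replicate block was run as an alternative.

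Promoters came from RefSeq (GRCh38.p14), and GRCh37 positions from exact matches of those sequences. Transcript lengths came from GENCODE v44 lifted to GRCh37. Multi-copy entries that the table lists with very long spans were not counted as overlapping genes. Alternatives were another pseudocount, filter, scaling, trend or threshold, the replicate block, fits of only the compared groups, and each sample left out.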

Additional observations from a re-analysis of the deposited data

Results flagged for a closer look

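CRABP2 differed in its response to the HAND2 siRNA between cells with and without the MYCN siRNA, by the interaction term of the limma fit (-1.24 on the log2 scale, limma adjusted p = 0.00021, 12 samples). It was lower with the HAND2 siRNA in both settings, by a log2 change of -1.09 against siCtrl and of -2.33 against siMYCN, in 3 of 3 samples each. The term lay between -1.43 and -1.12 when each sample was left out in turn, and was -1.07 after rescaling. Mean MYCN CPM was at 47.7% of siCtrl with both siRNAs but at 67.5% with the MYCN siRNA alone. The MYCN knockdown was thus not equally deep in the groups compared, and its part in the term was not tested.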

How the results depend on the processing

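The number of interaction calls among the members depended on the setting. It was 1 as reported (4.01% of all genes), and 2 with no filter, where the added call is that of DHRS3, tested only with no filter. It was 3 with the replicate block (10.1% of all genes), 2 with rescaling and the replicate block, and 2 without the mean-variance trend. When each sample was left out it was 1 to 5, with 5 beside 35% of all genes. Counts here with no share beside them cannot be set against all genes. CRABP1 in the combined knockdown against siCtrl reversed to 0.25 with rescaling (limma adjusted p = 0.028), 0.24 with scaling to the sum over listed genes (0.038), 0.25 with rescaling and the block (0.016), and 0.33 with rescaling without combined replicate 3 (0.0073), a setting chosen after seeing the data, as was rescaling with no filter. In the other contrasts the count of called members stayed within 1.5 times of that reported under every setting run, and leaving out each sample gave 4 to 5 (siMYCN), 5 to 7 (siHAND2) and 6 to 8 (combined) against siCtrl. With the replicate block, 53 of the 56 member comparisons kept their call and 3 gained one: RARG in siHAND2 (-0.30, limma adjusted p = 0.029) and the interactions of RARB (-0.57, 0.024) and RXRA (-0.50, 0.031). With rescaling 50 of the 56 were unaltered, 3 lost and 2 gained a call, and 1 reversed. With no filter 2 calls of RARA were lost, in siMYCN (0.12) and siHAND2 (0.073). MYCN and HAND2 were called in all 4 comparisons with their siRNA under every setting run. The siMYCN minus siCtrl difference of DHRS3 was 0.879 to 1.37 CPM when each sample was left out. Depth limits DHRS3 and CYP26A1, whose lowest samples hold 0 and 6 estimated reads, and the wide spread of the combined samples limits that group.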
